A study of Mus musculus with 12 samples.

Results

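The liver's bile and organic anion transporters were described here as 10 genes of the 23420 gene symbols in the count tables: Slc10a1, Slco1a1, Slco1a4, Slco1b2, Abcb11, Abcb4, Abcc2, Abcc3, Abcg5 and Abcg8. They were chosen by symbol, for the transport function of their proteins. The libraries came from livers of C57BL/6 mice about 20 weeks of age on normal chow, collected at ZT10, which is 10 hours after lights on. There were 3 wild type females, 3 Siah2 KO females, 3 wild type males and 3 Siah2 KO males, 12 mice in all, each named here by its number. Siah2 KO mice lacked both copies of Siah2, a gene for a ubiquitin ligase. Both genotypes were bred as related homozygous lines from intercrossed heterozygotes, so the groups are not described as littermates. The labels speak of RNA pooled from 3 mice, whereas the methods describe individual livers for this experiment and each library carries 1 mouse number.

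Hepatocytes take bile acids and other organic anions from blood through carriers of the sinusoidal membrane and secrete bile through ATP-driven pumps of the canalicular membrane. Slc10a1 encodes the sodium-dependent bile acid carrier NTCP, and Slco1a1, Slco1a4 and Slco1b2 encode sodium-independent carriers of the OATP family with broad substrates. Of the canalicular pumps, Abcb11 exports bile salts, Abcb4 moves phosphatidylcholine into bile, Abcc2 exports conjugated anions such as bilirubin glucuronide, and Abcg5 and Abcg8 together form a sterol exporter. Abcc3 sits in the basolateral membrane and returns conjugates to blood. In rodent liver several OATP genes differ between the sexes, and the sex pattern of growth hormone release and its mediator STAT5b are known regulators of such genes.

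All 10 genes were placed by symbol on the RefSeq annotation of GRCm38.p6, the assembly behind the mm10 build that the submitters' processing notes name. The 3 OATP genes lay in 1 cluster on chromosome 6, with Slco1b2 at 141629452 to 141686646, Slco1a4 at 141805438 to 141856284 and Slco1a1 at 141907281 to 141946962. The end of Slco1b2 was 118791 bases from Slco1a4, and Slco1a4 was 50996 bases from Slco1a1. Slc10a1 lay on chromosome 12 at 80953185 to 80968705. Abcg5 (84658174 to 84683011) and Abcg8 (84676302 to 84700333) shared chromosome 17, where the start of Abcg5 on the minus strand and a start of Abcg8 on the plus strand were 110 bases apart. The other pumps were spread over the genome, with Abcb11 on chromosome 2 at 69238282 to 69342616, Abcb4 on chromosome 5 at 8893614 to 8959226, Abcc2 on chromosome 19 at 43782308 to 43838332 and Abcc3 on chromosome 11 at 94343295 to 94393017. RefSeq promoter windows matched 9 of the 10 genes, all but Abcc3, with 11 windows.

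The 250 bases before the start are shown for Slco1a1, Slco1a4 and Slc10a1, because these 3 genes separated all female from all male livers, and the bases between Abcg5 and Abcg8 are shown because Abcg5 and 1 of the 2 listed starts of Abcg8 flank that segment. The other Abcg8 start, at 84676302, lies within Abcg5 and outside the printed segment. The listed start of Slco1a4, at 141856220, lies inside the range of the gene given above, so part of its window falls within that range. Sequences run 5′ to 3′ along the gene's strand, the last along the plus strand, and capitals mark matches on either strand to 1 of 6 searched motifs. The windows are chr6:141946963-141947212 for Slco1a1, chr6:141856221-141856470 for Slco1a4 and chr12:80968706-80968955 for Slc10a1, all on the minus strand, and chr17:84683012-84683120 for the segment between Abcg5 and Abcg8.
Slco1a1: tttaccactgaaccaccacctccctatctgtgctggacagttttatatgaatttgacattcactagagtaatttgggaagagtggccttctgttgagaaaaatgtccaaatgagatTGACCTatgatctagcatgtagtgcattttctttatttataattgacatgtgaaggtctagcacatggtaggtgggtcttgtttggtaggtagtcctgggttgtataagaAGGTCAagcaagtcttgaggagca
Slco1a4: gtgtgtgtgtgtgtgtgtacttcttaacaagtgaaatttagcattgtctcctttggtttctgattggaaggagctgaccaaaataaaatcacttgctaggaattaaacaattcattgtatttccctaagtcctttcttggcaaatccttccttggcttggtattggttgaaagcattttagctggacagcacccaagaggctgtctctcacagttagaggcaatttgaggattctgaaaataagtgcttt
Slc10a1: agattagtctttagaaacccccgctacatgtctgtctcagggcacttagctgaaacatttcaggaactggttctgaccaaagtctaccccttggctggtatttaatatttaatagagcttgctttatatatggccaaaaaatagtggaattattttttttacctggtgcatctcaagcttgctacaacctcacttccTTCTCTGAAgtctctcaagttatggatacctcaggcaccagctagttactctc
Abcg5 to Abcg8: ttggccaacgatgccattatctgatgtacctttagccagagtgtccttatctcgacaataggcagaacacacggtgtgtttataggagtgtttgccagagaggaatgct
The nuclear receptor motif AGGTCA was found 2 times before Slco1a1, from 134 to 129 bases before the start on the opposite strand and from 24 to 19 bases before it on the gene's own strand. The STAT5 motif TTCNNNGAA was found before Slc10a1, from 53 to 45 bases upstream. Slc10a1 has a second listed start, whose window holds 1 AGGTCA match and is not printed. The Slco1a4 window and the 109 bases between Abcg5 and Abcg8 held none of the searched letters. Over the 11 windows, AGGTCA was found in 5, against 14% of the 32851 windows of the same length in the table, and the STAT5 motif in 2, before Slc10a1 and Slco1b2, against 7.02%. The antioxidant response element TGACNNNGC was in 1 window, that of Abcc2 (10.2% of all windows), and the HNF1 motif GTTAAT in 1, that of Slco1b2 (6.43%). The E-box CACGTG (6.02%) and the HNF4 motif CAAAGTCCA (0.384%) were in 0 of the 11. These matches describe letters in the window and were not tested for binding.

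Between 1293688 and 4056144 reads were counted per library, with a median of 2670267.5. The X-inactivation RNA Xist had 66.2 to 113 CPM in libraries labelled female and no more than 0.868 CPM in those labelled male. The Y-linked Ddx3y had 55.0 to 71.6 CPM in libraries labelled male and no more than 0.722 CPM elsewhere. Siah2 kept 9.42 to 17.4 CPM in Siah2 KO libraries and 11.5 to 27.1 CPM in wild type libraries, and since the position of the 3′ reads relative to the deleted part is not given, these reads do not check the genotype. Wild type female 1091 stood apart from the other libraries of its group, where the chi-square of its counts against them, divided by its degrees of freedom, was 42.0 and 44.95, beside 6.71 to 21.8 for other pairs of replicates. Results that rest on it are given with and without it. Females and males were in separate tables and their handling is not described, so sex and any handling of the tables' samples cannot be told apart. The 6 hepatocyte markers were detected in all 12 libraries and summed to between 26940 and 42664 CPM. Alb held the largest part (group means of 12835 to 22871 CPM), and single markers were less even than the sum. Tat ranged from 37.9 to 728 CPM over the 12 libraries. In wild type and Siah2 KO females, the means were 3542 and 7145 CPM for Cyp2e1 and 3049 and 1384 CPM for Serpina3k.

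Each transporter gene was tested in all comparisons. Counts ranged from 8 to 8306 reads, and 9 of the 10 genes had at least 50 reads in each library. The exception was Slco1a1, whose lowest value was 8 reads in Siah2 KO female 1070, or 2.16 CPM with an exact Poisson 95% interval of 0.935 to 4.27 CPM that covers counting error only. Levels are given as CPM, the reads of a gene divided by the TMM-scaled total of its library and brought to 1 common scale. Fold changes are from edgeR's quasi-likelihood test, with p-values adjusted by Benjamini and Hochberg over all genes tested and a threshold of 0.05.

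**Figure D1:**
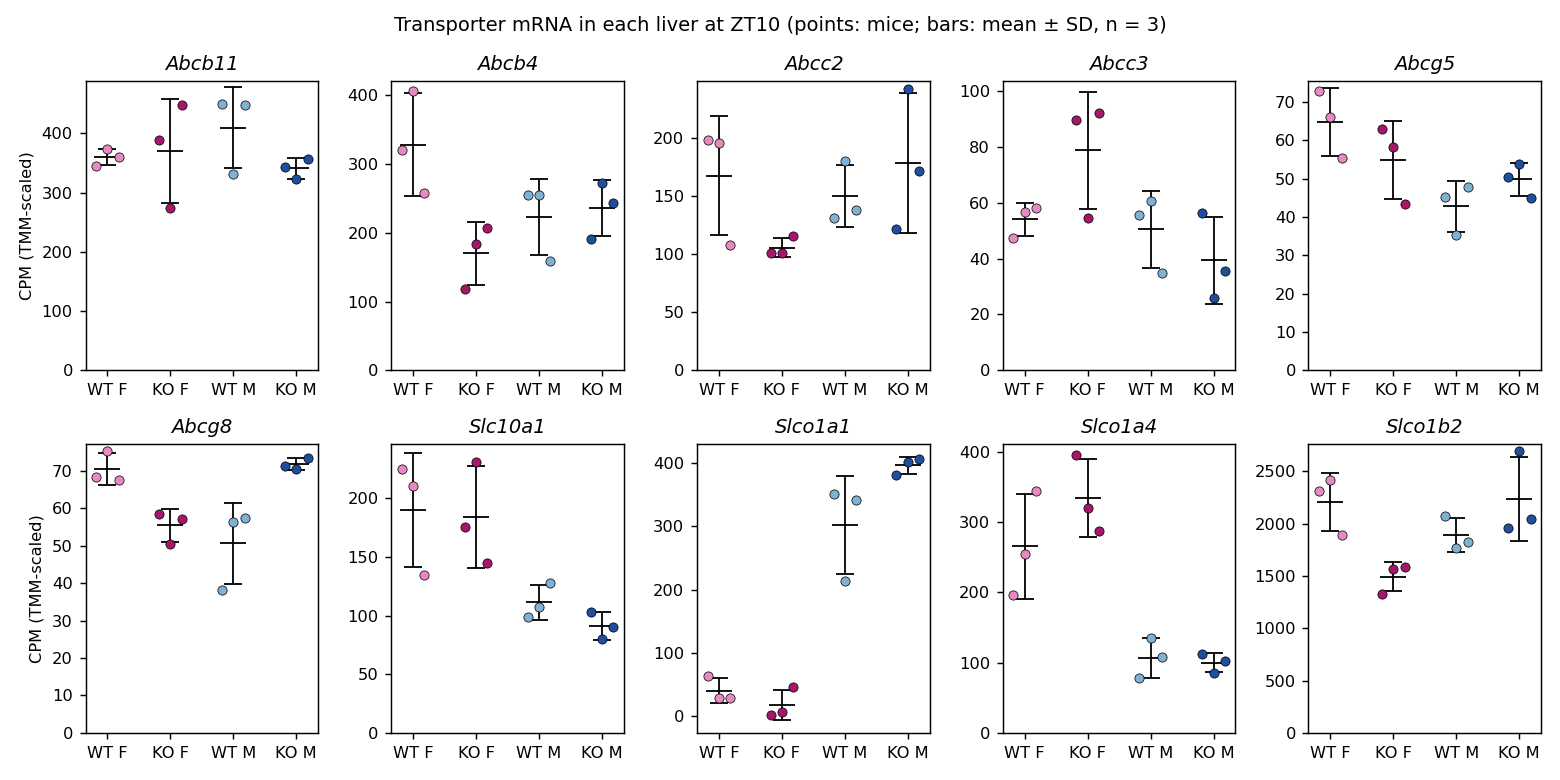
Level of each transporter gene in CPM (vertical axes, each from 0 or below) in the 4 groups of 3 livers. Points are mice and bars the mean ± SD. Slco1a1 lay between 2.16 and 63.5 CPM in females and between 213 and 407 CPM in males, while the ranges of Abcb11 overlapped in all groups.

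Among the sinusoidal carriers, Slco1a1 was far lower in females than in males in both genotypes. Slco1a4 and Slc10a1 were higher in females in Siah2 KO livers, while in wild type livers their values were also higher in each female but edgeR called neither. Slco1a1 stood at 351, 213 and 342 CPM in wild type males 1055, 1086 and 1087, and at 381, 401 and 407 CPM in the Siah2 KO males 1075, 1076 and 1081. In the wild type females 1089, 1090 and 1091 it stood at 63.5, 28.5 and 29.3 CPM, and in Siah2 KO females 1070, 1104 and 1105 at 2.16, 7.36 and 45.7 CPM. No female liver came near the lowest male liver, and the Siah2 KO females were widely spread, with 1105 inside the range of the wild type females and the other two below it. The order of the group means was Siah2 KO males (396 ± 13.3, SD, n = 3), wild type males (302 ± 77.1), wild type females (40.4 ± 19.99) and Siah2 KO females (18.4 ± 23.8 CPM), and neighbours of the same sex were not called different.

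The difference of Slco1a1 between wild type females and males was a log2 fold change of -2.87 (SE 0.37, adjusted p = 0.00322, edgeR), or 7.33-fold lower in females. It was the 1 transporter gene called in that comparison, where edgeR called 130 of 9335 genes (1.39%) and DESeq2 called 3.74% of its genes, Slco1a1 and Slco1a4 among them. Between Siah2 KO females and males the log2 fold change of Slco1a1 was -4.69 (SE 0.58, edgeR adjusted p = 9.29e-05), or 25.7-fold lower in females. It ranged from -4.01 without Siah2 KO female 1070 to -6.46 without Siah2 KO female 1105 and was called in each case, so the size of the fold rests on single females. The 2 log2 fold changes differed by -1.68 (95% interval -3.50 to 0.13, edgeR adjusted p = 0.401), so edgeR did not call the change of the sex difference. Without the filter on low counts it did, at -1.71 (adjusted p = 0.00121), and with a library left out the value ranged from -1.06 without Siah2 KO female 1070 to -3.52 without Siah2 KO female 1105, called in none. Pooled over the groups, the SD of log2 CPM of Slco1a1 was 1.05, above that of 99.2% of genes tested, beside a median of 0.37 over all genes. This spread lay in the females, since the coefficient of variation of its CPM was 129% in Siah2 KO females and 49.4% in wild type females, against 25.5% in wild type males and 3.36% in Siah2 KO males.

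Slco1a4 ran opposite to Slco1a1. It stood at 196, 255 and 345 CPM in wild type females 1089, 1090 and 1091 and at 396, 320.0 and 287 CPM in Siah2 KO females 1070, 1104 and 1105. In males the values were 77.98, 135 and 108 CPM in wild type 1055, 1086 and 1087 and 112, 85.1 and 102 CPM in Siah2 KO 1075, 1076 and 1081. The lowest female was above the highest male, and within each sex the genotypes overlapped. In Siah2 KO livers the gene was higher in females by a log2 fold change of 1.75 (SE 0.17, edgeR adjusted p = 9.02e-06), or 3.36-fold. In wild type livers the value was 1.35 (SE 0.31), which edgeR did not call (adjusted p = 0.0671) and DESeq2 did (adjusted p = 0.00459). Without wild type female 1091 the wild type value was 1.07 with an edgeR adjusted p of 0.0199.

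**Figure D2:**
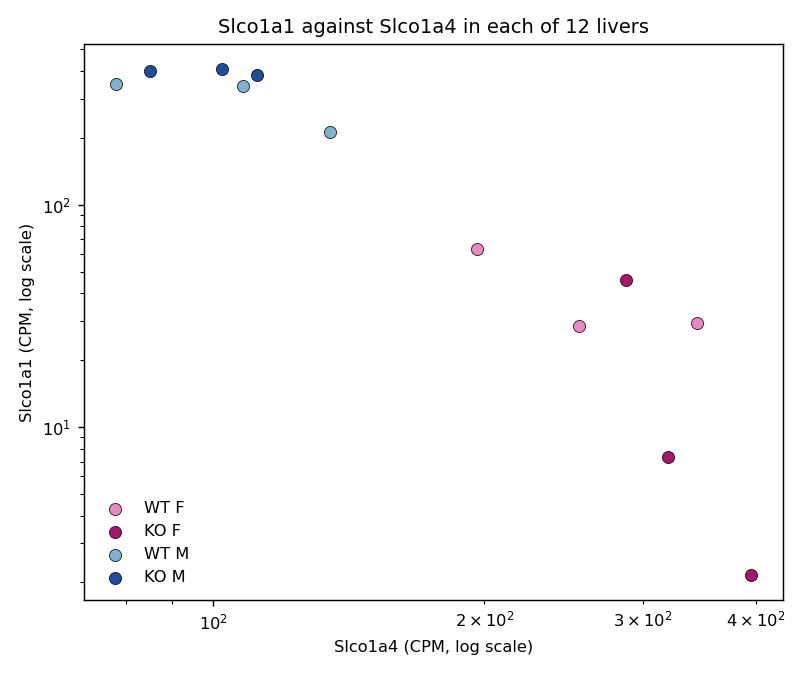
Slco1a1 (vertical axis) against Slco1a4 (horizontal axis) in CPM, both on log scales, with 1 point per liver and a colour per group. Male livers lie above 213 CPM of Slco1a1 and below 135 CPM of Slco1a4, and female livers lie at the opposite corner, with Siah2 KO female 1070 the lowest for Slco1a1 and the highest for Slco1a4.

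The ratio of Slco1a1 to Slco1a4 reads needs no scaling between libraries. Its separation of the sexes follows from the opposite differences of the 2 genes given above and is no separate support for them. The ratio was 1.58 to 4.50 in wild type males and 3.41 to 4.71 in Siah2 KO males. It was 0.0850 to 0.324 in wild type females and 0.00547 to 0.159 in Siah2 KO females. Males had more Slco1a1 than Slco1a4 reads in each library and females fewer. The transcript ends of the 2 genes shared no 30-base word in their last 500 nucleotides (GENCODE M1).

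Slc10a1, the sodium-dependent bile acid carrier, had a level of 225, 210.4 and 135 CPM in wild type females 1089, 1090 and 1091 and 175, 231 and 145 CPM in Siah2 KO females 1070, 1104 and 1105. In males it was 98.6, 108 and 128 CPM in wild type 1055, 1086 and 1087 and 103, 79.9 and 90.4 CPM in Siah2 KO 1075, 1076 and 1081. The sexes did not overlap, although wild type female 1091 lay close to wild type male 1087. The log2 fold change was 1.02 between Siah2 KO females and males (SE 0.18, edgeR adjusted p = 0.00238), or 2.03-fold. Between wild type females and males it was 0.79 (SE 0.25, edgeR adjusted p = 0.180), and 0.96 without female 1091 (edgeR adjusted p = 0.0104). The change of its sex difference with genotype was 0.25 (95% interval -0.45 to 0.94). Over all 6 females and 6 males, the ranges of Slc10a1, Slco1a4 and Slco1a1 did not overlap and those of the other 7 genes did, beside 4.49% of all 9806 genes with no overlap.

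Slco1b2, the third OATP of the cluster, followed another pattern. It stood at 2312, 2414 and 1893 CPM in wild type females 1089, 1090 and 1091 and at 1330.2, 1566 and 1583 CPM in Siah2 KO females 1070, 1104 and 1105. Wild type males 1055, 1086 and 1087 had 2076, 1764 and 1828 CPM, and Siah2 KO males 1075, 1076 and 1081 had 1958, 2695 and 2047 CPM. The 3 Siah2 KO females were the 3 lowest livers, and the ranges of the other 3 groups overlapped. Slco1b2 was lower in Siah2 KO females than in Siah2 KO males by a log2 fold change of -0.58 (SE 0.17, edgeR adjusted p = 0.0408). Between wild type females and males the value was 0.25 (SE 0.24, edgeR adjusted p = 0.670).

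Siah2 KO livers thus had 6 transporter genes called between the sexes. Slco1a4, Slc10a1 and Abcc3 were higher in females, where edgeR called 5.69% of 9102 genes in that direction, and Slco1a1, Abcc2 and Slco1b2 were lower, where it called 5.78%. In either direction 11.5% of genes were called by edgeR and 9.91% by DESeq2, and DESeq2 and limma-voom called the same 6 transporter genes. The efflux pumps Abcc2 and Abcc3 complete the 6.

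Abcc3, which returns conjugates to blood, stood at 89.8, 54.5 and 92.1 CPM in Siah2 KO females 1070, 1104 and 1105 and at 56.5, 26.04 and 35.7 CPM in Siah2 KO males 1075, 1076 and 1081. It was higher in the females by a log2 fold change of 0.999 (SE 0.26, edgeR adjusted p = 0.0244), although female 1104 was below male 1075. Wild type females had 47.3, 56.7 and 58.3 CPM and wild type males 55.8, 60.8 and 35.0 CPM, which overlapped (log2 fold change 0.14, SE 0.27, edgeR adjusted p = 0.854). Abcc2, the canalicular pump for conjugated anions, stood at 100.4, 101 and 115 CPM in Siah2 KO females and at 122, 241 and 171 CPM in Siah2 KO males. It was lower in the females by a log2 fold change of -0.75 (SE 0.21, edgeR adjusted p = 0.0327), and the groups did not overlap. In wild type livers its values were 198, 195 and 108 CPM in females 1089, 1090 and 1091 and 131, 180.0 and 138 CPM in males, with a log2 fold change of 0.18 (SE 0.28, edgeR adjusted p = 0.811). The calls of Abcc2, Abcc3 and Slco1b2 were lost when all 4 groups shared 1 estimate of spread, and without male 1076, male 1081 or female 1070. Without female 1104 those of Abcc2 and Slco1b2 were lost, and without female 1105 that of Abcc3, while those of Slco1a1, Slco1a4 and Slc10a1 held under each of the 12 alternatives.

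**Figure D3:**
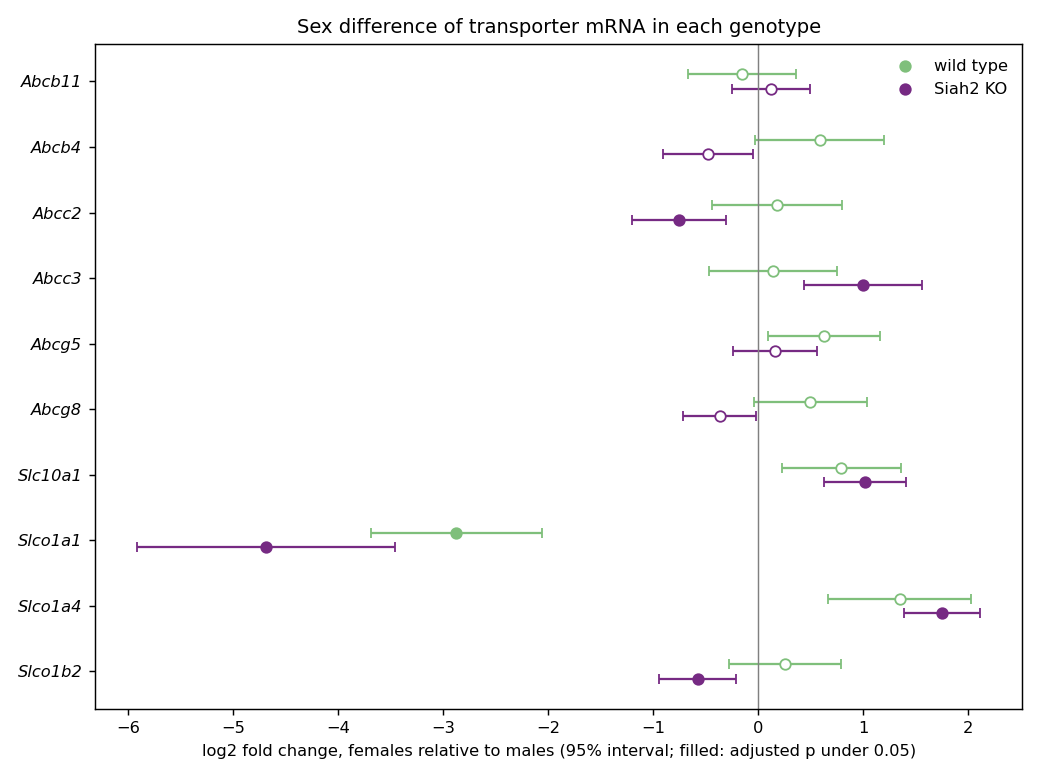
Log2 fold change of each transporter gene in females relative to males (horizontal axis, with 95% interval) in wild type and Siah2 KO livers, filled where edgeR's adjusted p was under 0.05. Of the wild type points 1 is filled, that of Slco1a1 at -2.87, and of the Siah2 KO points 6 are filled, from -4.69 for Slco1a1 to 1.75 for Slco1a4.

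The canalicular pumps Abcb11, Abcb4, Abcg5 and Abcg8 were called in neither sex comparison. Abcb11, the bile salt export pump, had overlapping ranges in all groups, with 359.6 ± 13.9 CPM in wild type females, 370.3 ± 88.2 in Siah2 KO females, 409.7 ± 68.4 in wild type males and 341 ± 17.8 in Siah2 KO males (SD, n = 3 each). Its log2 fold change between the sexes had a 95% interval of -0.67 to 0.36 in wild type and of -0.25 to 0.50 in Siah2 KO livers. Ranges alone separated more genes than the test called. In wild type livers Abcb4, Abcg5, Abcg8, Slc10a1 and Slco1a4 were higher in all females and Slco1a1 lower, 6 of the 10, beside 22.7% of all genes tested with no overlap. In Siah2 KO livers Slc10a1 and Slco1a4 were higher in all females and Abcc2, Abcg8, Slco1a1 and Slco1b2 lower, 6 of 10, beside 30.7% of all genes.

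In bulk liver, fewer cells of a type and less RNA per cell cannot be told apart. Kupffer and immune markers (8 of 9 in the tables) summed to 351 to 809 CPM in females and 91.0 to 598 CPM in males, and the 5 endothelial markers to 204 to 301 CPM in females and 156 to 215 CPM in males. The 8 bile duct markers, of which 2 passed the filter on low counts, summed to 10.2 to 49.1 CPM in females and 33.9 to 63.8 CPM in males. The 5 stellate markers ranged from 105.5 to 299 CPM and the 3 intestinal ones from 39.9 to 85.1 CPM over all livers. Of the intestinal markers 1 passed the filter, and Fabp2 alone held most of the sum (group means of 51.3 to 63.2 CPM). Of the 7 red blood cell markers 5 were in the tables, without Hbb-bs and Hbb-bt. The 4 globin genes present were listed at 0 in all 12 libraries, which does not show that globin RNA was absent. Alas2 alone gave 8.47 to 25.2 CPM in females and 83.9 to 154 CPM in males. The part of these cell types in the sex differences was not tested.

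Siah2 KO was then compared with wild type within each sex, a comparison that the study also made in these libraries. With DESeq2 the study reported altered transcripts in both sexes, far more of them in females. In females edgeR called 0 of 9465 genes (0%), 1478 of them at an unadjusted p under 0.05, and 0 transporter genes, 3 at an unadjusted p under 0.05 (Abcb4, Abcc2 and Slco1b2). DESeq2 called 303 of 8185 genes there (3.7%), and of the transporters 1, Abcb4. In males edgeR called 0 of 8823 genes (0%), 357 at an unadjusted p under 0.05, and 0 transporter genes, Abcg8 being the 1 at an unadjusted p under 0.05. DESeq2 called 6 of 16219 genes in males (0.037%) and no transporter. The DESeq2 shares of the sexes thus rest on unlike numbers of genes.

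Abcb4, the phosphatidylcholine transporter, had the lowest p of the 10 genes in females. It stood at 320.2, 407 and 257 CPM in wild type females 1089, 1090 and 1091 and at 119, 183 and 208 CPM in Siah2 KO females 1070, 1104 and 1105. Each Siah2 KO female was below each wild type female. The log2 fold change was -0.96 (SE 0.28), or 1.95-fold lower, where edgeR gave an adjusted p of 0.156 and DESeq2 one of 0.0443. Without wild type female 1091, which was the lowest of its group, it was -1.10 with an edgeR adjusted p of 0.0168. Males had 255.4, 255 and 159 CPM in wild type 1055, 1086 and 1087 and 191, 273 and 244 CPM in Siah2 KO 1075, 1076 and 1081, which overlapped with a log2 fold change of 0.08 (SE 0.20, edgeR adjusted p = 0.9999). Reads of Abcb4 per read of Abcb11 were 0.713 to 1.09 in wild type females and 0.305 to 0.668 in Siah2 KO females, beside 0.356 to 0.771 in wild type males and 0.557 to 0.846 in Siah2 KO males. Abcb4 shared 30-base words at its transcript end with its relative Abcb1b, which had at most 6.08 CPM in any library.

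The other genes with values below 0 in females did not pass the test either. Slco1b2, with the values given above, had a log2 fold change of -0.58 (SE 0.24, edgeR adjusted p = 0.286), and its groups did not overlap. Abcc2 had -0.68 (SE 0.27, edgeR adjusted p = 0.263), and wild type female 1091, at 108 CPM, lay inside the range of the Siah2 KO females. Without female 1091 edgeR called both, with log2 fold changes of -0.66 (adjusted p = 0.0380) for Slco1b2 and -0.90 (adjusted p = 0.0104) for Abcc2, and it then called 936 genes in all. Female 1091 had the lowest value of its group for both genes. With any other female library left out, edgeR called 0 genes. Slco1a1 had -1.26 (SE 0.81, edgeR adjusted p = 0.499). With a library left out it ranged from -0.66 without Siah2 KO female 1070 (edgeR adjusted p = 0.780) to -3.14 without Siah2 KO female 1105 (edgeR adjusted p = 0.305), the 1 animal of its group in the wild type range. It was -2.44 by limma-voom (adjusted p = 0.182), and -1.27 without the filter on low counts, where edgeR called it (adjusted p = 0.00855). Slc10a1 (-0.06, SE 0.27) and Slco1a4 (0.32, SE 0.27) had intervals that spanned 0. Abcc3 had 0.53 in females (SE 0.26, edgeR adjusted p = 0.368) and -0.35 in males (SE 0.28), and Abcb11 had 0.03 (SE 0.24) and -0.27 (SE 0.16). In males Slco1a1 had 0.38 (SE 0.18, edgeR adjusted p = 0.9999), with the 3 Siah2 KO values above the 3 wild type ones.

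Abcg5 and 1 of the 2 listed starts of its partner gene Abcg8 flank the segment printed above, and the values of the pair were not parallel in all groups. Abcg8 had 68.2, 75.3 and 67.5 CPM in wild type females 1089, 1090 and 1091 and 58.4, 50.4 and 57.2 CPM in Siah2 KO females 1070, 1104 and 1105. In males it had 38.2, 56.3 and 57.3 CPM in wild type 1055, 1086 and 1087 and 71.2, 70.3 and 73.4 CPM in Siah2 KO 1075, 1076 and 1081. Siah2 KO livers were thus below wild type in females and above wild type in males, with no overlap in either sex. The log2 fold changes were -0.36 in females (SE 0.21, edgeR adjusted p = 0.451) and 0.47 in males (SE 0.19, edgeR adjusted p = 0.9999). Abcg5, its partner, had 64.8 ± 8.81 and 54.9 ± 10.3 CPM in wild type and Siah2 KO females and 42.8 ± 6.71 and 49.8 ± 4.40 CPM in wild type and Siah2 KO males (SD, n = 3 each), and the genotypes overlapped in both sexes. The ratio of Abcg5 to Abcg8 reads was 0.821 to 1.07 in wild type females, 0.758 to 1.15 in Siah2 KO females, 0.625 to 1.18 in wild type males and 0.614 to 0.765 in Siah2 KO males.

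Ranges that did not overlap were found for 3 of the 10 genes in females, all lower in Siah2 KO (Abcb4, Abcg8 and Slco1b2), beside 23.3% of all genes tested. In males 2 of the 10 did not overlap, both higher in Siah2 KO (Abcg8 and Slco1a1), beside 8.87% of all genes. The median log2 fold change of the 10 genes was -0.30 in females, where that of all genes tested was -0.03, with 3 values above 0 and 7 below. In males the median was 0.14, beside -0.01 over all genes, with 6 above 0 and 4 below.

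**Figure D4:**
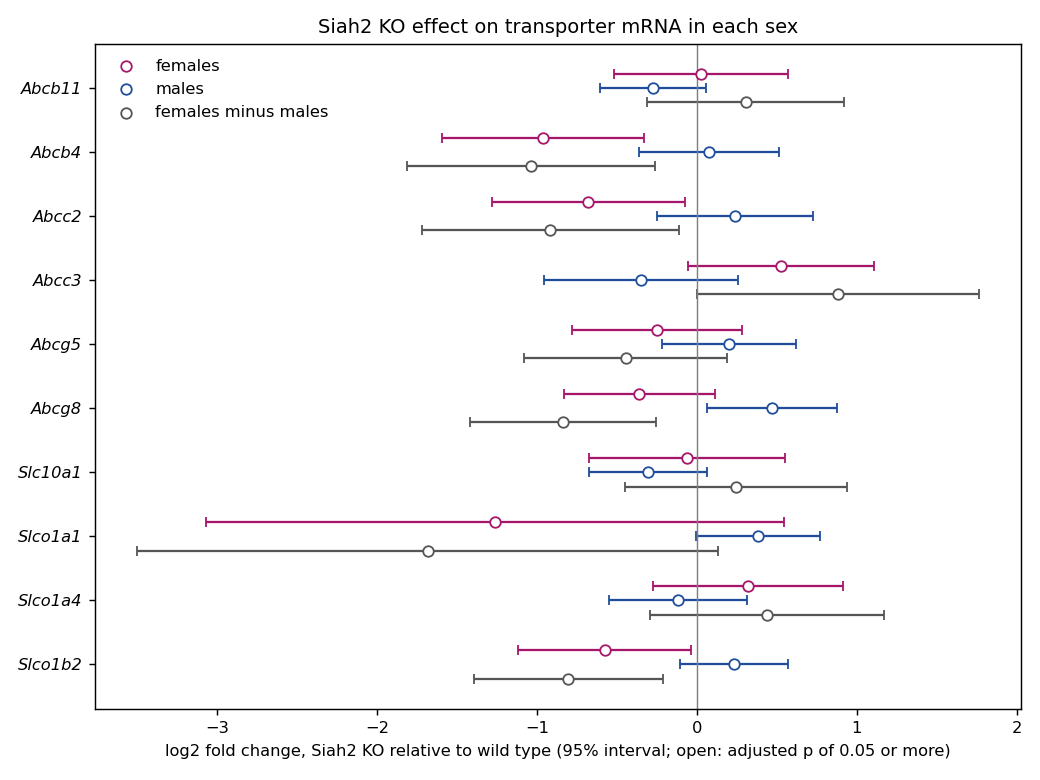
Log2 fold change of each transporter gene in Siah2 KO relative to wild type livers (horizontal axis, with 95% interval) in females, in males, and as the value in females minus that in males. All points are open, since edgeR's adjusted p was 0.05 or more for each, and the widest intervals are those of Slco1a1.

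The difference between the effects in females and in males was tested in 1 fit of all 12 libraries. Of the 10 genes 0 were called by edgeR, 4 at an unadjusted p under 0.05, where edgeR called 0.255% of 9806 genes and had 1382 at an unadjusted p under 0.05. DESeq2 called 3.32% of genes, and of the transporters Slco1b2 alone. The 4 genes were Abcg8 (-0.84, 95% interval -1.42 to -0.26, edgeR adjusted p = 0.173), Slco1b2 (-0.81, -1.40 to -0.21, edgeR adjusted p = 0.196 and DESeq2 adjusted p = 0.0381), Abcb4 (-1.04, -1.81 to -0.26, edgeR adjusted p = 0.203) and Abcc2 (-0.92, -1.72 to -0.11, edgeR adjusted p = 0.278). All 4 were below 0, the value in females being the lower one. Without wild type female 1091 edgeR called 3 of them, Abcb4 (-1.18), Abcc2 (-1.14) and Slco1b2 (-0.89), and 522 genes in all. With any other library left out, edgeR called none of the 4.

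Other genes of bile formation were read from the same fits, as lists chosen with earlier results in view. In Siah2 KO livers edgeR called 5 of 18 tested carriers and canalicular proteins other than the 10 between the sexes, beside 11.5% of all genes. Abcb1a, a drug exporter, was higher in females (log2 fold change 2.24), and so was the bile acid ligase Slc27a5 (0.49). The urate and drug exporter Abcg2 (-1.13), the anion carrier Slc22a7 (-1.69) and the flippase subunit Tmem30a (-0.51) were lower. DESeq2 called the same genes except Slc22a7 (adjusted p = 0.0561). The medians were -0.09 over the list and -0.0016 over all genes. In wild type livers edgeR called 0 of 20 and DESeq2 called 1, Abcg2 (log2 fold change -1.21, edgeR adjusted p = 0.0512), and in neither sex was any called between the genotypes by either tool.

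Of the 15 genes of bile acid synthesis and conjugation, edgeR called 4 higher and 3 lower in females when Siah2 KO livers of both sexes were compared, beside 5.69% and 5.78% of all genes. Cyp7a1, the rate-limiting enzyme, had a log2 fold change of 2.26, Akr1d1 of 1.43 and Cyp39a1 of 1.57, and the fourth was Slc27a5, counted among the carriers as well. Of those lower, Cyp7b1 had -3.40, Cyp8b1, which makes the precursor of cholic acid, -1.54 and Scp2 -1.48. DESeq2 called the same genes except Akr1d1 (adjusted p = 0.102). In wild type livers edgeR called Cyp7b1 (-2.88), and DESeq2 also Cyp7a1 (1.20) and Scp2 (-0.76). Cyp8b1 was the 1 gene of the list that edgeR called in the difference of the effects (-2.29, adjusted p = 0.0460). That call was lost in 9 of the 12 fits with a library left out, in which edgeR called 0 genes lower (those without 1070, 1075, 1076, 1081, 1086, 1087, 1089, 1104 or 1105). Cyp8b1 had 60.5 to 93.1 CPM in wild type and 21.4 to 22.3 CPM in Siah2 KO females. DESeq2 called Cyp8b1 and Scp2 (-0.69) in the difference. Within females edgeR gave Cyp8b1 a log2 fold change of -1.86 (adjusted p = 0.0674) and DESeq2 called it, while Cyp7a1 had 0.68 (edgeR adjusted p = 0.446). In males Cyp8b1 had 0.45 and Cyp7a1 -0.42 (edgeR adjusted p = 0.9999 for both).

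Of the 15 receptors and regulators, edgeR called 1 higher and 2 lower in females in the same comparison, beside the same 5.69% and 5.78% of all genes. Nr1h4, the bile acid receptor FXR, had a log2 fold change of 0.59, its target Nr0b2 (SHP) -1.82 and Hnf4a -0.63. Nr0b2 was low, with 1.47 to 4.82 CPM in Siah2 KO females and 3.19 to 17.7 CPM in wild type females (log2 fold change -1.95, edgeR adjusted p = 0.199), and Nr1h4 had 0.36 there (edgeR adjusted p = 0.482). In males the values were 0.45 for Nr0b2 and -0.09 for Nr1h4, and between wild type females and males 0.59 and 0.17, none of them called. DESeq2 called the xenobiotic receptor Nr1i2 within females (-1.05, edgeR adjusted p = 0.121) and in the difference of the effects (-1.37, edgeR adjusted p = 0.104), where Nr0b2 had -2.40 and Nr1h4 0.45.

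The list of known sex-biased genes and regulators of sex bias had 5 of 10 tested genes called by edgeR in wild type livers, beside 1.39% of all genes. A1bg was higher in females and Cyp2d9, Cyp7b1 (also in the list of bile acid synthesis), Elovl3 and Hsd3b5 were lower. The same 5 were called among 9 tested in Siah2 KO livers, beside 11.5% of all genes. The list was chosen for known ties to sex bias, so its share of calls is not an independent result. The other tested genes of the list, such as Stat5b, were not called in either genotype by edgeR. Elovl3, for example, had 4.33 to 12.6 CPM in wild type females and 147 to 342 CPM in wild type males, and 3.61 to 6.26 CPM in Siah2 KO females and 243 to 364 CPM in Siah2 KO males. A1bg had 81.0 to 641 CPM in wild type females and was at 0 in wild type males, and it had 16.9 to 61.9 CPM in Siah2 KO females, a difference in females that DESeq2 called and edgeR did not (adjusted p = 0.0962). Sult2a1, which DESeq2 called in wild type livers, was listed at 0 in all males. The 3 genes nearest to Slco1a1 over the 12 libraries, by root mean square difference of centred log2 CPM, were C6 (0.907), Serpina4-ps1 (0.914) and Mup21 (0.916). The match was loose, since the nearest gene of each other transporter lay at 0.0750 to 0.275. Their group means in wild type females and males were 12.6 and 121 CPM for C6, 2.40 and 27.6 CPM for Serpina4-ps1 and 8.15 and 232 CPM for Mup21. In Siah2 KO females and males the means were 7.95 and 145 CPM for C6, 1.06 and 47.5 CPM for Serpina4-ps1 and 4.30 and 152 CPM for Mup21.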

How the data were processed

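Liver RNA was made into libraries with Lexogen QuantSeq 3′ chemistry, which primes at the poly(A) tail. The authors trimmed, mapped and counted reads on Illumina's BaseSpace platform, per the methods, and deposited raw counts per gene symbol in 1 table for each sex. The submitters' processing notes name STAR, DESeq and mm10, without versions or roles. Columns were matched to samples by mouse number, and 3 libraries formed each group. Rn45s held 5.68% to 17.9% of the counts. The methods describe no molecular identifiers. The p-values weigh each difference against the spread between libraries of a group.

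Counts were tested with edgeR 4.0.16 (filterByExpr, TMM scaling, glmQLFit and glmQLFTest, two-sided, Benjamini-Hochberg adjustment over all genes tested, threshold 0.05) in R 4.3.3, within each sex, between the sexes of each genotype, and for the difference of the effects in 1 fit of 4 groups. DESeq2 1.42.0, limma-voom (limma 3.58.1), RLE scaling, no filter beyond 1 count, thinning to the smallest total, a 4-group fit and leaving out each library were the alternatives. CPM used TMM-scaled totals of all 12 libraries and log2 CPM a prior count of 3. Scripts were tested on simulated data. Figures used Python 3.11.15, pandas 2.3.3 and matplotlib 3.10.9. Promoter sequences and positions are those of RefSeq (GRCm38.p6).

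The 10 genes, the pathway and marker lists and the comparisons were chosen with earlier results of these data known. All 10 genes are named, and of the pathway lists each gene called by edgeR or DESeq2 in a comparison (at most 6, by smallest p), with Nr1h4, Nr0b2, Cyp7a1 and Cyp8b1 in any case. The 3 genes most like a transporter are named for those that edgeR called between wild type females and males.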

Additional observations from a re-analysis of the deposited data

How the results depend on the processing

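For Siah2 KO against wild type in females, edgeR called 0 genes, where DESeq2 called 303, no filter beyond 1 count 484 and the 4-group fit 427, and leaving out a library gave 0 to 936, the last without wild type female 1091. Of the transporters these settings called 1 (Abcb4), 2 (Abcb4 and Slco1a1) and 1 (Abcb4), and 0 to 3 with a library left out. In males DESeq2 called 6 genes, no filter 29 and leave-one-out 0 to 3, the last without wild type male 1086, with 0 transporters throughout. Between wild type females and males the 130 calls became 338 with DESeq2, 536 without the filter, 505 in the 4-group fit and 43 to 740 with a library left out. The lowest was without wild type male 1087, with 45 without 1055 and 76 without 1086, and the highest without female 1091. Transporters called were 2 (Slco1a1 and Slco1a4) under the first 3 settings and 1 to 3 with a library left out. Between Siah2 KO females and males the 4-group fit called 352 genes and 3 transporters, and leave-one-out 486 to 1056 genes and 3 to 6 transporters. For the difference of the effects the 25 calls became 260 with DESeq2, 325 without the filter, 2 after thinning and 0 to 522 with a library left out. Transporters called were 1 with DESeq2 (Slco1b2), 1 without the filter (Slco1a1) and 0 to 3 with a library left out.

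Log2 fold changes of single genes kept their sign except when a library was left out, in 12 cases of values that were not called. The ranges were -0.14 to 0.21 for Abcb11 and -0.26 to 0.082 for Slc10a1 in females, -0.11 to 0.22 for Abcb4, -0.038 to 0.46 for Abcc2 and -0.28 to 0.10 for Slco1a4 in males, -0.11 to 0.30 for Abcc3 between wild type females and males, and -0.039 to 0.30 for Abcb11 between Siah2 KO females and males. The cause was not tested. No paired analysis was possible because the groups share no replicate numbers.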
